A study of Mus musculus with 9 samples.

Results

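The 7 genes described here regulate the G1 phase of the cell cycle. They are the D cyclins Ccnd1, Ccnd2 and Ccnd3, the CDK inhibitors Cdkn1a, Cdkn1b and Cdkn1c, and the transcription factor Myc. They were chosen by name, with earlier results of these data known, from the 52636 genes counted in single cells of the mouse thyroid. D cyclins bind the kinases CDK4 and CDK6 and start the phosphorylation of the retinoblastoma proteins, which frees the E2F factors that switch on DNA synthesis. The inhibitors of the Cip/Kip family bind cyclin and kinase complexes and hold cells in G1 or at rest: Cdkn1a is a well known target of p53, Cdkn1b transcription is raised by FoxO factors, and Cdkn1c is an imprinted gene. Myc pairs with Max to drive growth, ribosome synthesis and entry into the cycle. Notch signalling is known to act on Ccnd1, Myc and Cdkn1a in several cell types, and most follicular cells of the adult thyroid are at rest.

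The samples were dissociated thyroids of male C57BL/6 mice, aged 10 to 12 weeks in the design text and 10 to 14 weeks in the protocol, 7 days after 1 intraperitoneal injection. Mice of the group RW, the isotype control, received 40 mg/kg of an antibody against ragweed. Mice of the group aJ1aJ2 received antibodies that block the ligands Jag1 and Jag2, at 20 mg/kg each, and mice of the group aN1aN2 received antibodies that block the receptors Notch1, at 5 mg/kg, and Notch2, at 10 mg/kg. Each group had 3 samples, and each sample was a pool of thyroids from 6 mice, so the replicate is the pool (RW 1 to 3, aJ1aJ2 1, 3 and 4, aN1aN2 1 to 3). The antibodies reached the whole animal, so a change in a cell type may arise outside it. The sample numbers in the titles of the 3 aN1aN2 pools form a series that no other pool belongs to, and receptor blockade and that series cannot be told apart. The question of the design is what blocking ligands or receptors of Notch does to the cells of the adult thyroid.

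The table held 10186 cells and 63121420 unique molecular identifiers (UMIs, 1 for each captured RNA molecule). Pools held 583 to 1805 cells and 3013324 to 11880793 UMIs, and 15 cell barcodes occurred in more than 1 library. The authors gave each cell 1 of 16 labels. Markers fitted the labels used most: Th1 carried thyrocyte markers (96016 CPM, the UMIs of 8 genes scaled to a common total), the labels EC1 to EC4 endothelial markers (14051, 5424, 4564 and 12987 CPM over 6 genes), F fibroblast markers (32738), M macrophage markers (20290), SM smooth muscle markers (26198), S Schwann cell markers (15880) and T1 markers of T and NK cells (2491). EC2 and EC3 also held 2058 and 2273 CPM of smooth muscle and pericyte markers, and EC1, EC2, EC4 and F held 8425, 4291, 2082 and 2692 CPM of erythroid markers (5 genes). Th3 mixed thyrocyte markers (82449 CPM) with C cell (28148) and skeletal muscle markers (13929) and is not called a thyrocyte class here. Th1 cells of aN1aN2 were shallower: the median cell held 5737 to 7558 UMIs in aN1aN2 and 9968 to 22558 in the other pools. The same held in F (2295 to 3864 against 5231.5 to 10026) and EC2 (1271 to 1819 against 2730 to 4037). In EC1 the aN1aN2 medians (2518 to 3533.5) lay below RW (4679 to 4968) and overlapped aJ1aJ2. In EC3 they overlapped those of aJ1aJ2 and in EC4 those of RW.

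All 7 genes were found in the table, with very different depth. The UMI totals over all cells were 13050 for Ccnd2, 5940 for Cdkn1a, 5545 for Ccnd3, 4483 for Cdkn1b, 4004 for Ccnd1, 3194 for Cdkn1c and 350 for Myc. On GRCm38, Ccnd1 (ENSMUSG00000070348) lies at chr7:144929931-144939925 on the minus strand, Ccnd2 (ENSMUSG00000000184) at chr6:127125162-127152193 on the minus strand and Ccnd3 (ENSMUSG00000034165) at chr17:47505051-47599691 on the plus strand. Cdkn1a (ENSMUSG00000023067) lies at chr17:29090976-29100727 and Cdkn1b (ENSMUSG00000003031) at chr6:134920401-134925513, both on the plus strand, and Cdkn1c (ENSMUSG00000037664) at chr7:143458339-143461050 on the minus strand. Myc (ENSMUSG00000022346) lies at chr15:61985391-61990374 on the plus strand. Ccnd1 overlaps LTO1 and Ccnd3 overlaps Bysl on the opposite strand, with 801 and 619 UMIs of their own. Whether the counting used strand is not given in the sources used here, so reads of these pairs may be shared.

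Cdkn1a was called under receptor blockade in more labels than any other of the 7 genes, and the sequences before its annotated starts are shown for that reason. RefSeq lists 2 start sites, and the 250 bases before each are given on GRCm38.p6, plus strand. Capitals mark matches to the p53 half-site consensus at the site 1 window, and, at the site 2 window, GGGCGG (a GC box of the Sp1 kind) and the TATA box letters TATAA.
Cdkn1a site 1, chr17:29090729-29090978: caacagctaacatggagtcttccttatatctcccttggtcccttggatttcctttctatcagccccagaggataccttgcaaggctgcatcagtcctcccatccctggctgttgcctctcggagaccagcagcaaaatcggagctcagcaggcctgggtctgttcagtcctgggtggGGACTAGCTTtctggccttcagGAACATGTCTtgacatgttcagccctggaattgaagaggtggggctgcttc
Cdkn1a site 2, chr17:29093519-29093768: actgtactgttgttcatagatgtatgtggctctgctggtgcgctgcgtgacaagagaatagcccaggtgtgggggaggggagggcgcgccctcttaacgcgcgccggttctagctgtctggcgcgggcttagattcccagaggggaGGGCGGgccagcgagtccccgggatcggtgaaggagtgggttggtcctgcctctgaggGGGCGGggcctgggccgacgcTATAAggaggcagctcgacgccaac
The half-sites lie 73 to 64 and 51 to 42 bases before the site 1 start. The GC boxes lie 104 to 99 and 46 to 41 bases, and the TATA box 25 to 21 bases, before the site 2 start. The TATA box letters also matched the other strand 227 to 223 bases before the site 1 start. Both strands were searched in 32851 promoter windows of the same length: 7.13% held a p53 half-site, 32.7% held the GC box and 22.8% the TATA box letters. TGGGAA, the core of sites bound by the Notch partner RBPJ, was in 21.6% of windows and in the site 2 window once, on the other strand. The Myc box CACGTG (6.02% of windows) and the FoxO motif GTAAACA (3.17%) had no match in either window. The counts come from 3′ ends of transcripts and do not tell the start sites apart. Entries for Ccnd3 (2 start sites) and Cdkn1b (1) exist too, and 3 of 7 genes had any.

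In the control pools the 7 genes had different homes among the labels. CPM values below were taken from the summed cells of a label in a pool, for sums of at least 20 cells, with totals adjusted by TMM so that pools can be compared. They are compared for 1 gene at a time between labels with at least 2 such RW pools, without a test, since the labels were made from these cells.

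**Figure D1:**
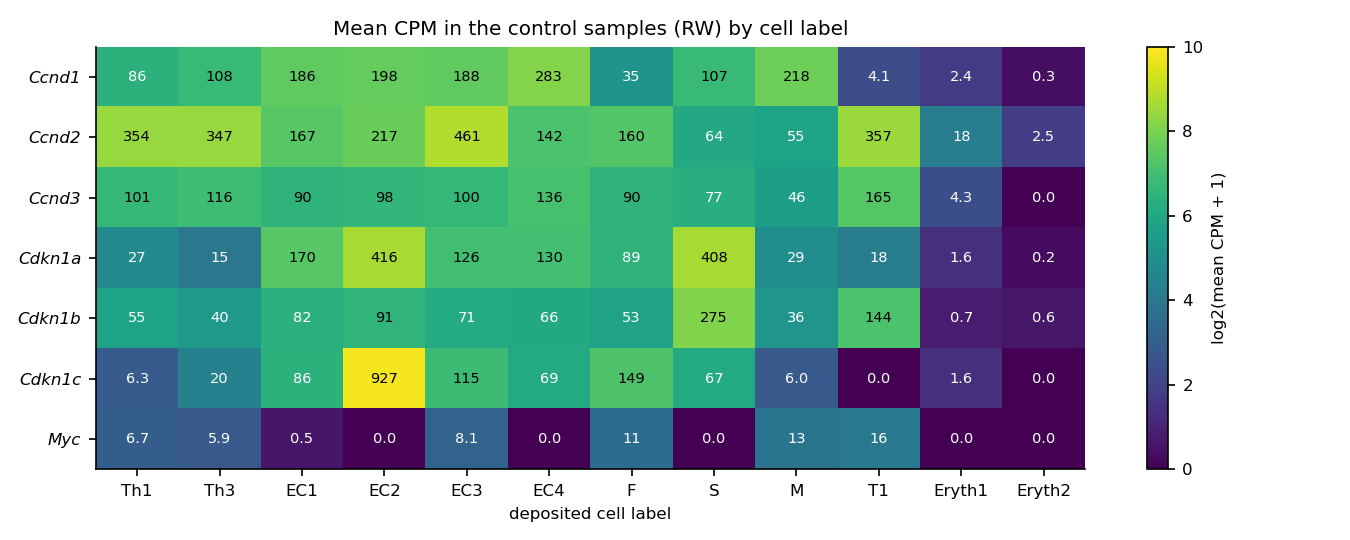
Mean CPM of each gene in the RW pools (numbers; colour, log2 of mean CPM plus 1) by deposited label, for labels with at least 2 RW pools. Ccnd1 is highest in EC4 (283 CPM) and Cdkn1c in EC2 (927 CPM), while Th1 has 354 CPM of Ccnd2 and 6.3 CPM of Cdkn1c.

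Ccnd1 was highest in EC4, at 282.8 ± 65.9 CPM (SD, n = 3), followed by M at 218.3 ± 20.4, EC2 at 198.2 ± 104.2 (n = 2), EC3 at 188.4 ± 47.6 and EC1 at 185.6 ± 63.0, all neighbours within the larger SD. Th1 stood at 85.8 ± 8.10 and F at 34.7 ± 19.6 CPM, each step down being beyond the larger SD from its lower neighbour. Ccnd1 is the D cyclin that growth factors and integrins induce, and here vessel cells and macrophages held more of it than thyrocytes. In T1 it was at 4.14 ± 4.95 CPM.

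Ccnd2 had another order. EC3 led at 460.9 ± 54.9 CPM, beyond the larger SD from T1 at 356.8 ± 41.4, and T1, Th1 (354.0 ± 10.9) and Th3 (347.0 ± 107.5) did not differ beyond theirs. EC1 (166.9 ± 32.0), F (159.8 ± 10.3) and EC4 (141.5 ± 8.32) held less than the thyrocytes. Ccnd3, the D cyclin of lymphocytes, was highest, among labels with at least 2 RW pools, in T1 at 164.6 ± 16.9 CPM. T2, a label with thymocyte markers and 1 such RW pool, held more: 611.9 CPM on its library total in RW 2 (543 UMIs in 272 cells), where T1 held 137.3 to 168.1 on the same scale. Ccnd3 was close to 100 CPM or above in Th1 (100.6 ± 5.35), Th3 (116.4 ± 14.5) and EC4 (136.2 ± 27.3). Across Th1, EC3, EC2, EC1 and F its levels ran from 100.6 to 90.0 CPM, and no neighbours in that order differed by more than the larger SD. The RW pools of Th1 (94.5 to 104.5 CPM) and EC1 (89.1 to 90.9), which are not neighbours, did not overlap.

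The inhibitors sat elsewhere. Cdkn1a was highest in EC2 (416.0 ± 203.9 CPM, n = 2) and S (407.6 ± 226.7, n = 2), lower in EC1 (170.2 ± 97.4), EC4 (129.7 ± 104.6) and EC3 (125.7 ± 53.4), and low in Th1 (26.8 ± 6.52). The SDs show how much control pools differed in this gene: in EC1 RW 3 held 66.3 CPM, RW 1 184.9 and RW 2 259.4. Cdkn1b was highest in S (275.5 ± 232.2, n = 2) and T1 (143.5 ± 48.4), with Th1 at 54.7 ± 8.44. Cdkn1c was highest in EC2, at 608.7 and 1245 CPM in its 2 RW pools, then in F (148.6 ± 62.7) and EC3 (114.7 ± 22.8), and at 6.29 ± 0.652 CPM in Th1. Myc was scarce everywhere, from 15.7 ± 5.32 CPM in T1 and 13.3 ± 9.82 in M to 6.74 ± 3.08 in Th1, and it was at 0 in the RW sums of EC2, EC4, S, Eryth1 and Eryth2. Over the 7 genes, 23 of 77 neighbouring pairs of labels differed by more than the larger SD. With library totals in place of TMM the highest of these labels was the same for each gene.

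With Notch1 and Notch2 blocked, 6 of the 7 genes changed in Th1 thyrocytes: Ccnd1 and Ccnd3 fell and Cdkn1a, Cdkn1b, Cdkn1c and Myc rose, while Ccnd2 did not pass the test. Adjusted p-values come from edgeR (quasi-likelihood test, Benjamini-Hochberg over all genes tested in the label), and genes under 0.05 are called. In the same cells 34.4% of 10627 genes were called (1814 rose, 1839 fell), so a large part of the thyrocyte transcriptome moved with these genes. The 7 genes were chosen with earlier results of these data known, so their count is no test of them as a set. Under ligand blockade edgeR and DESeq2 each called 0 of the 7 in Th1, where 0.612% of genes were called by edgeR. Both comparisons use the same RW pools.

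**Figure D2:**
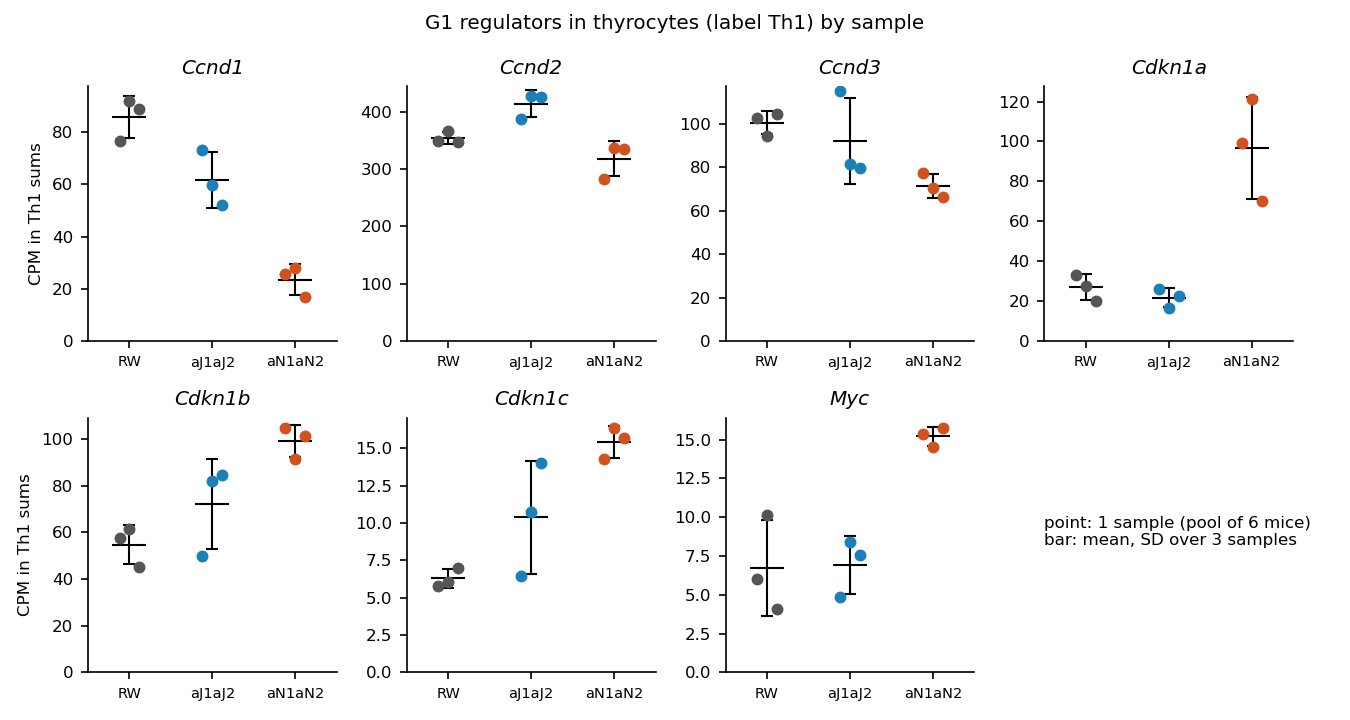
CPM of each gene in Th1 sums by group, 1 point per pool, bars for the mean and SD over 3 pools. The aN1aN2 pools lie below every RW pool for Ccnd1 (16.9 to 27.9 against 76.5 to 91.8 CPM) and above every RW pool for Cdkn1a (70.1 to 121.2 against 19.9 to 32.8 CPM).

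Among the D cyclins, Ccnd1 in Th1 stood at 76.5, 91.8 and 88.9 CPM in RW 1 to 3, at 73.1, 59.6 and 51.9 in aJ1aJ2 1, 3 and 4, and at 25.8, 27.9 and 16.9 in aN1aN2 1 to 3. The 3 groups did not overlap: every aJ1aJ2 pool was below every RW pool and every aN1aN2 pool lower still. The fall in aN1aN2 was 3.47-fold (log2 change -1.79, SE 0.18, adjusted p = 2.16e-06). For aJ1aJ2 the log2 difference was -0.47 (SE 0.15, adjusted p = 0.169) and was not called, though it was without aJ1aJ2 1 (adjusted p = 0.0239) and with no filter on low counts (0.0474).

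Ccnd2, the most abundant of the 7 in UMIs, stood at 348.3, 366.5 and 347.1 CPM in RW, at 386.6, 428.2 and 426.6 in aJ1aJ2 and at 283.1, 336.3 and 334.9 in aN1aN2. The aJ1aJ2 pools were highest and the aN1aN2 pools lowest, with no overlap, but neither passed against RW (log2 0.23, adjusted p = 0.363, and log2 -0.16, adjusted p = 0.255). Ccnd3 stood at 102.7, 94.5 and 104.5 CPM in RW, at 115.1, 81.7 and 80.0 in aJ1aJ2 and at 77.4, 70.3 and 66.5 in aN1aN2. All aN1aN2 pools were below all RW pools, while aJ1aJ2 1 was above RW and the other aJ1aJ2 pools below. The fall of Ccnd3 in aN1aN2 was small (log2 -0.49, SE 0.15, adjusted p = 0.0168) and was no longer called in 5 of 17 alternatives, including those without RW 1 or RW 3 (both 0.0511), aN1aN2 2 (0.0725) or aN1aN2 3 (0.0537).

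All 3 inhibitors rose in aN1aN2 thyrocytes. Cdkn1a stood at 32.8, 27.7 and 19.9 CPM in RW, at 25.8, 16.5 and 22.8 in aJ1aJ2 and at 99.3, 121.2 and 70.1 in aN1aN2. The aN1aN2 pools were clear of both other groups, which overlapped. The rise was 3.73-fold against RW (log2 1.90, SE 0.21, adjusted p = 8.83e-06), and the aJ1aJ2 difference was log2 -0.35 (SE 0.24, adjusted p = 0.599).

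Cdkn1b, whose protein is the main brake on CDK2 in resting cells, stood at 57.5, 61.4 and 45.2 CPM in RW, at 50.01, 81.9 and 84.6 in aJ1aJ2 and at 104.8, 91.5 and 101.5 in aN1aN2. Its rise in aN1aN2 was 1.84-fold (log2 0.88, SE 0.18, adjusted p = 0.00148), and aJ1aJ2 3 and 4 lay between the other groups while aJ1aJ2 1 lay with RW (log2 0.43, adjusted p = 0.322, or 0.0136 without aJ1aJ2 1). Cdkn1c stood at 5.77, 6.07 and 7.02 CPM in RW, at 6.45, 10.7 and 14.0 in aJ1aJ2 and at 14.3, 16.4 and 15.7 in aN1aN2, from 71, 82 and 66 UMIs per group. Its rise in aN1aN2 was 2.41-fold (log2 1.27, SE 0.28, adjusted p = 0.00283), and the aJ1aJ2 pools spanned the gap between RW and aN1aN2 (log2 0.70, adjusted p = 0.305).

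Myc stood at 5.99, 10.1 and 4.09 CPM in RW, at 4.84, 8.38 and 7.59 in aJ1aJ2 and at 15.4, 14.5 and 15.7 in aN1aN2, from 63, 58 and 65 UMIs. The aN1aN2 pools were above all others and close to each other. The rise was 2.53-fold (log2 1.34, SE 0.32, adjusted p = 0.00478) and was not called with the same number of Th1 cells drawn from every pool (62 cells, adjusted p = 0.163). The aJ1aJ2 pools lay within the RW range (log2 0.27, adjusted p = 0.791). Ccnd1, Cdkn1a, Cdkn1b and Cdkn1c kept their aN1aN2 calls in all 17 alternatives run in Th1. Of the 7 genes, 4 had an unadjusted p under 0.05 for aJ1aJ2 in Th1 (Ccnd1, Ccnd2, Cdkn1b and Cdkn1c), beside 12.3% of all genes.

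Markers of other cells moved with the groups in Th1. The parathyroid markers (1 or 2 of 3 genes with UMIs in a pool, nearly all Pth, with 2 UMIs of Gcm2 in all) summed to 6.75 to 39.2 CPM in RW, 7.45 to 58.6 in aJ1aJ2 and 96.6 to 233.3 in aN1aN2. The Schwann cell markers (3 of 4 genes with UMIs, mostly S100b, with Sox10 at 0) summed to 224.5 to 251.1 CPM in RW, 158.7 to 208.1 in aJ1aJ2 and 91.9 to 97.6 in aN1aN2, and the skeletal muscle markers (3 of 3) to 1.37 to 4.05, 3.96 to 25.1 and 5.49 to 37.0 CPM. C cell markers (4 of 4 over all pools, mostly Calca, with 1 UMI of Calcb) overlapped between RW (422.0 to 1084 CPM) and aN1aN2 (1002 to 1855). Endothelial markers (6 of 6) summed to 412.4 CPM over all Th1 cells, where EC1 held 14051. In aN1aN2 the mean of Cdkn1a was 1121 CPM in EC1 and 96.9 in Th1. RNA carried over from endothelial cells into Th1 was not computed. The part of these cells in the changes of the 7 genes was not tested.

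The sums could reflect a few cells or many, so the share of Th1 cells with a UMI of each gene was taken after thinning each cell to 5000 UMIs. Shallower cells were left out: 5, 6 and 7 of 180, 84 and 161 in RW and 1, 19 and 17 of 90, 193 and 113 in aJ1aJ2. In aN1aN2 57, 54 and 22 of 158, 128 and 62 were left out, so its shares cover the deeper cells. Cdkn1a was seen in 9.14%, 7.69% and 9.74% of RW cells, in 6.74%, 7.47% and 7.29% of aJ1aJ2 cells and in 34.7%, 36.5% and 37.5% of aN1aN2 cells. Unthinned, these shares were 21.4% to 30.6% in RW, 20.7% to 21.2% in aJ1aJ2 and 41.9% to 43.7% in aN1aN2. Erythroid cells of the label Eryth2, which should lack the gene, gave 1 of 823 cells at 5000 UMIs (0.122%, exact 95% interval 0.00308% to 0.675%). Erythroid markers made up 967628 CPM of Eryth2, so few UMIs were left for other genes. Its share therefore gives no rate of false detection for Th1. Ccnd1 was seen in 23.1% to 27.9% of RW cells, 19.5% to 24.7% of aJ1aJ2 cells and 5.41% to 15% of aN1aN2 cells.

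**Figure D3:**
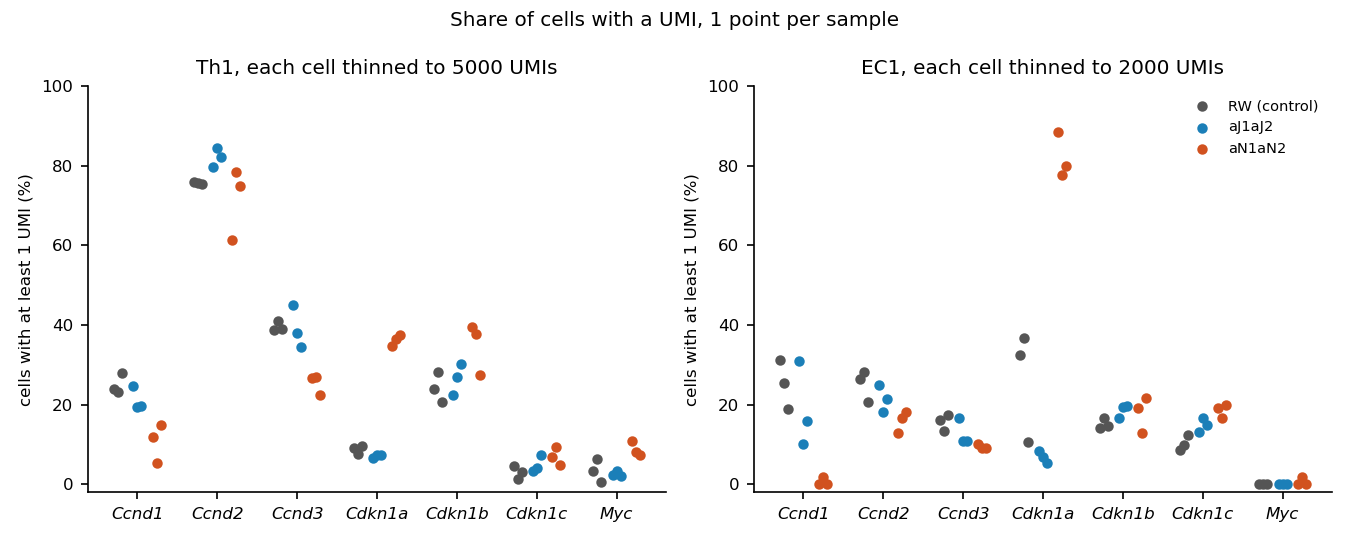
Share of cells with at least 1 UMI of each gene, 1 point per pool, in Th1 thinned to 5000 UMIs (left) and EC1 thinned to 2000 UMIs (right). Cdkn1a is seen in 34.7% to 37.5% of aN1aN2 Th1 cells and 77.8% to 88.5% of aN1aN2 EC1 cells.

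In Th1 the aN1aN2 shares did not overlap the RW shares for 5 of 7 genes, lower for Ccnd1 and Ccnd3 and higher for Cdkn1a, Cdkn1c and Myc. Of the 10627 genes tested in Th1, thinned in the same way, 27.8% had shares without overlap in this comparison. For aJ1aJ2 this held for 2 of 7, Ccnd2 (higher) and Cdkn1a (lower), beside 12.7% of all genes. Myc was seen in 0.649% to 6.41% of RW cells and 7.50% to 10.9% of aN1aN2 cells. With 3 pools against 3 the exact two-sided permutation test cannot go below p = 0.1, which each of these 7 differences reached (0.2 after Benjamini-Hochberg adjustment over 14 tests). At 2000 UMIs per cell, 3 genes (Ccnd1, Cdkn1a and Myc) kept separate groups for aN1aN2 (24.4% of all genes) and none for aJ1aJ2 (11.3%). At that depth Cdkn1a was seen in 3.125% to 4.44% of RW cells, 1.56% to 4.44% of aJ1aJ2 cells and 7.14% to 15.8% of aN1aN2 cells.

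Outside the thyrocytes, receptor blockade raised Cdkn1a and lowered Ccnd1 in the endothelial labels EC1 to EC4, and raised Cdkn1a and Myc in the fibroblast label F, where Ccnd1 did not pass the filter on low counts. In 8 other labels 30 pairs of gene and label passed the filter on low counts, of 56 possible, and 14 were called in aN1aN2 against RW: 6 rose and 8 fell, beside 14.5% of all pairs tested. A gene that is high in 1 group passes the filter through that group, so the count covers only these 30 pairs. Myc in F passed only through the aN1aN2 pools and Ccnd1 in EC2 only through the RW pools. Cdkn1a in EC4 would not have passed without the aN1aN2 pools. The calls of these pairs are not independent of the filter. Cdkn1a rose in each of the 5 labels where it was tested, and Ccnd1 fell in each of the 4.

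**Figure D4:**
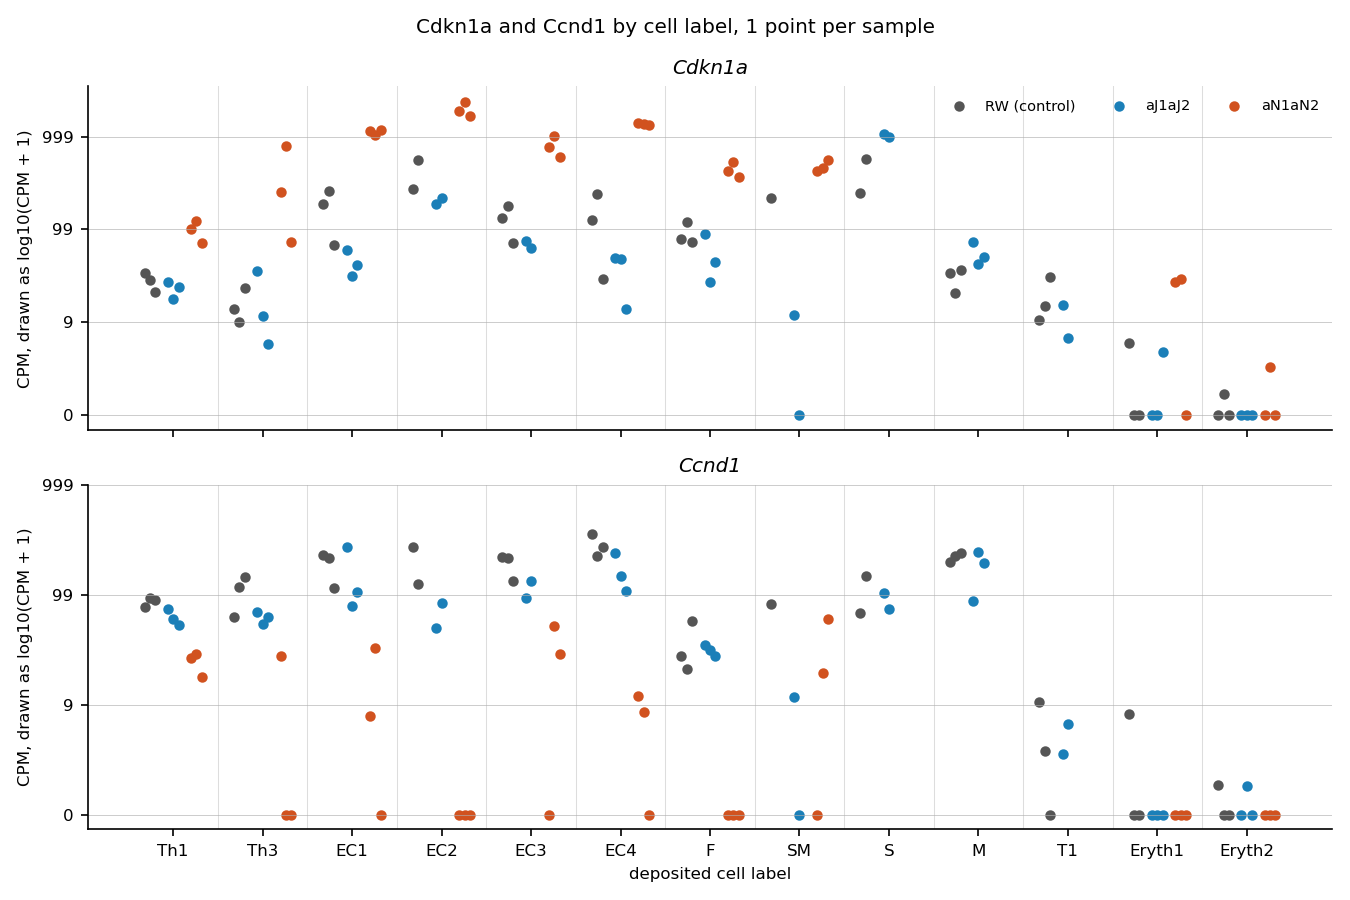
CPM of Cdkn1a (top) and Ccnd1 (bottom) by deposited label on a log10(CPM + 1) axis, 1 point per pool with at least 20 cells. The aN1aN2 pools lie above the RW pools for Cdkn1a and below them for Ccnd1 in EC1 to EC4, Th1 and F, and all aN1aN2 pools of EC2 and F are at 0 for Ccnd1.

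In EC1, the largest endothelial label, 17.8% of genes were called and 3 of 6 tested genes. Cdkn1a stood at 184.9, 259.4 and 66.3 CPM in RW, at 58.7, 30.0 and 39.7 in aJ1aJ2 and at 1148, 1027 and 1187 in aN1aN2. No groups overlapped: aJ1aJ2 was lowest, RW in between and widely spread, and aN1aN2 6.71-fold above RW (log2 2.75, SE 0.29, adjusted p = 4.68e-07). At 2000 UMIs per cell, Cdkn1a was seen in 88.5%, 77.8% and 80.0% of EC1 cells of aN1aN2, 32.4%, 36.7% and 10.6% of RW and 8.33%, 6.82% and 5.42% of aJ1aJ2 (unthinned, 88.0% to 89.3%, 29.9% to 67.0% and 12.5% to 24.7%). Thinning left out 39, 18 and 20 of 117, 72 and 75 cells in aN1aN2 and 6, 2 and 14 of 191, 182 and 288 in RW. RNA carried over from thyrocytes would give at most 1.93 CPM of Cdkn1a in an aN1aN2 pool of EC1 if all Tg there came from Th1 cells, against a mean of 1117 CPM on library totals. Th1 itself held a mean of 96.9 CPM in aN1aN2, so this value could only be small. Carry-over from other labels was not computed.

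Ccnd1 in EC1 stood at 230.1, 213.2 and 113.6 CPM in RW, at 272.2, 78.6 and 104.4 in aJ1aJ2 and at 6.86, 32.2 and 0 in aN1aN2. The 0 of aN1aN2 3 allows up to 9.55 CPM. The aN1aN2 pools were far below both other groups, which overlapped (log2 -3.77, SE 0.61, adjusted p = 0.000113). Pool aN1aN2 2 held 12 of the 15 UMIs of that group, and the fall stayed called but was log2 -5.49 without it (adjusted p = 0.000234), against -3.40 without aN1aN2 1 and -3.30 without aN1aN2 3. The aJ1aJ2 pools were not called, with a log2 difference of -0.40 (adjusted p = 0.699). Ccnd2 stood at 178.2, 191.7 and 130.8 CPM in RW, 171.2, 104.8 and 113.8 in aJ1aJ2 and 77.8, 91.2 and 73.2 in aN1aN2, which was below every other pool (log2 -1.03, SE 0.21, adjusted p = 0.00147). Ccnd3, Cdkn1b and Cdkn1c in EC1 had log2 differences of -0.43, 0.17 and 0.24 (adjusted p = 0.183, 0.638 and 0.533).

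EC4, with a median of 1045.5 UMIs per cell, gave the largest rise of Cdkn1a against RW among the tested labels (21.1% of genes called, 2 of 5 tested). Cdkn1a stood at 123.6, 237.2 and 28.2 CPM in RW, at 47.5, 46.9 and 12.6 in aJ1aJ2 and at 1391, 1359 and 1323 in aN1aN2, an 11.5-fold rise over RW (log2 3.52, SE 0.32, adjusted p = 4.38e-09). Ccnd1 stood at 353.0, 222.3 and 273.0 CPM in RW, 237.2, 147.4 and 107.5 in aJ1aJ2 and 11.1, 7.59 and 0 in aN1aN2. With 3 UMIs in aN1aN2 and 84 in RW, the ratio of RW to aN1aN2 was 40.6, with a 95% counting interval of 13.4 to 201 (adjusted p = 1.42e-08). Ccnd2 in EC4 was at 150.03, 133.4 and 141.2 CPM in RW and at 89.0, 38.0 and 66.6 in aN1aN2, below RW in every pool but not called (log2 -1.08, SE 0.40, adjusted p = 0.0534).

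EC2 was the label richest in Cdkn1c and EC3 the one richest in Ccnd2, and each gene fell there under receptor blockade. In EC2 (15.5% of genes called, 4 of 5 tested) Cdkn1c stood at 608.7 and 1245 CPM in RW 1 and 2, at 862.0 and 869.4 in aJ1aJ2 3 and 4 and at 488.9, 391.0 and 307.2 in aN1aN2. The aN1aN2 pools were below all others (log2 -1.15, SE 0.29, adjusted p = 0.0132), but the call was lost without RW 2 (adjusted p = 0.220) and without aN1aN2 3 (0.0575). Cdkn1a rose 4.95-fold, from 271.8 and 560.2 CPM in RW to 1878, 2376 and 1654 in aN1aN2 (log2 2.31, SE 0.28, adjusted p = 4.52e-05), with aJ1aJ2 at 184.2 and 217.3.

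Ccnd1 in EC2 had 58 UMIs in RW (271.8 and 124.5 CPM) and none in the 3 aN1aN2 pools, so it was at least 13.6-fold lower, taking 3 counts for the aN1aN2 group as the floor (adjusted p = 0.000876). It passed the filter on low counts there only through the RW pools, where it was high. Ccnd2 in EC2 stood at 153.6 and 280.1 CPM in RW and at 77.2, 45.1 and 94.5 in aN1aN2 (log2 -1.55, SE 0.47, adjusted p = 0.0359). Ccnd2 was no longer called there in 5 of 13 alternatives, including those without RW 2 (0.203) and without any 1 aN1aN2 pool (0.0612 to 0.147).

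In EC3 (5.91% of genes called, 3 of 6 tested) Ccnd2 stood at 413.2, 448.6 and 520.9 CPM in RW, at 260.2 and 328.8 in aJ1aJ2 3 and 4 and at 77.4, 249.3 and 174.6 in aN1aN2. The groups did not overlap, and aN1aN2 was lowest (log2 -1.42, SE 0.28, adjusted p = 0.00666). Ccnd1 fell from 217.6, 214.2 and 133.6 CPM in RW to 0 (which allows up to 25.8), 51.1 and 27.9 in aN1aN2 (log2 -2.71, SE 0.46, adjusted p = 0.00251). Cdkn1a rose 6.19-fold, from 131.7, 175.8 and 69.5 CPM to 765.6, 1010 and 593.5 (log2 2.63, SE 0.28, adjusted p = 9.69e-05). Cdkn1c in EC3 stood at 139.7, 94.97 and 109.5 CPM in RW and at 60.2, 32.0 and 90.8 in aN1aN2, without overlap but not called (log2 -0.93, adjusted p = 0.179). The smooth muscle and pericyte markers of EC3 (5 of 5 genes with UMIs) summed to 2835 to 4415 CPM in RW, 1106 to 1552 in aJ1aJ2 and 796.0 to 1010 in aN1aN2, and their part in these changes was not tested.

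In F, the fibroblast label, Myc and Cdkn1a rose (19.8% of genes called, 2 of 6 tested). Myc stood at 19.2, 12.6 and 0 CPM in RW, from 5, 5 and 0 UMIs, at 2.45, 5.51 and 16.7 in aJ1aJ2, from 1, 4 and 10 UMIs, and at 56.8, 86.2 and 104.8 in aN1aN2, from 9, 13 and 10 UMIs. Every aN1aN2 pool was above every other pool (log2 2.76, SE 0.61, adjusted p = 0.00335), and the call held in all 15 alternatives run there. Myc passed the filter on low counts in F only through the aN1aN2 pools, so its call is not independent of the rise. Cdkn1a rose 4.79-fold, from 76.9, 118.1 and 71.3 CPM in RW to 422.7, 524.1 and 366.8 in aN1aN2 (log2 2.26, SE 0.31, adjusted p = 3.87e-05), with aJ1aJ2 at 88.3, 26.2 and 43.4. Ccnd1 in F was at 26.9, 20.1 and 57.0 CPM in RW, 34.3, 30.3 and 26.7 in aJ1aJ2 and 0 in all 3 aN1aN2 pools, where 0 allows up to 18.9 to 31.4 CPM per pool. It did not pass the filter and was not tested in the analysis reported. With no filter it was called by edgeR (log2 -6.42, adjusted p = 0.000256), fitted against 0 UMIs and so no measure of size.

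Erythroid markers moved with aN1aN2 in 4 of these labels. In EC2 the RW pools summed to 498 to 614.6 CPM of these and the aN1aN2 pools to 1608 to 2196, in EC3 to 125.5 to 313.4 and 825.8 to 1194, in EC4 to 263.6 to 1275 and 1869 to 2742, and in F to 118.8 to 321.7 and 952.7 to 48011. In EC1 the groups overlapped, at 4029 to 21925 CPM in RW, 547.7 to 11323 in aJ1aJ2 and 2371 to 7907 in aN1aN2. The aJ1aJ2 pools ranged more widely in EC2 (410.2 to 14795 CPM) and EC4 (142.3 to 8591) than in EC3 (263.8 to 306.4) and F (176.5 to 1082). The part of these cells in the changes of the 7 genes was not tested.

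Some genes that did not pass the filter on low counts are given as values. In Th3 Cdkn1a stood at 12.9, 9.05 and 22.2 CPM in RW, 34.4, 10.7 and 4.798 in aJ1aJ2 and 252.4, 783.5 and 71.4 in aN1aN2, with every aN1aN2 pool highest, and with no filter the log2 change was 4.38 (adjusted p = 1.29e-10). Ccnd1 in Th3 stood at 61.4, 117.7 and 144.3 CPM in RW, 68.8, 53.3 and 62.4 in aJ1aJ2 and 26.6, 0 and 0 in aN1aN2. With no filter its log2 change in aN1aN2 against RW was -3.73 (adjusted p = 0.000388). In the erythroid labels no gene of the 7 passed the filter in any comparison. Myc in EC2 was at 0 in both RW pools and at 12.9, 30.1 and 47.3 CPM in aN1aN2, from 1, 2 and 2 UMIs, and was not tested. The 0 of RW 1 and RW 2 allows up to 17.7 and 31.1 CPM per pool, or 11.3 CPM over both.

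**Figure D5:**
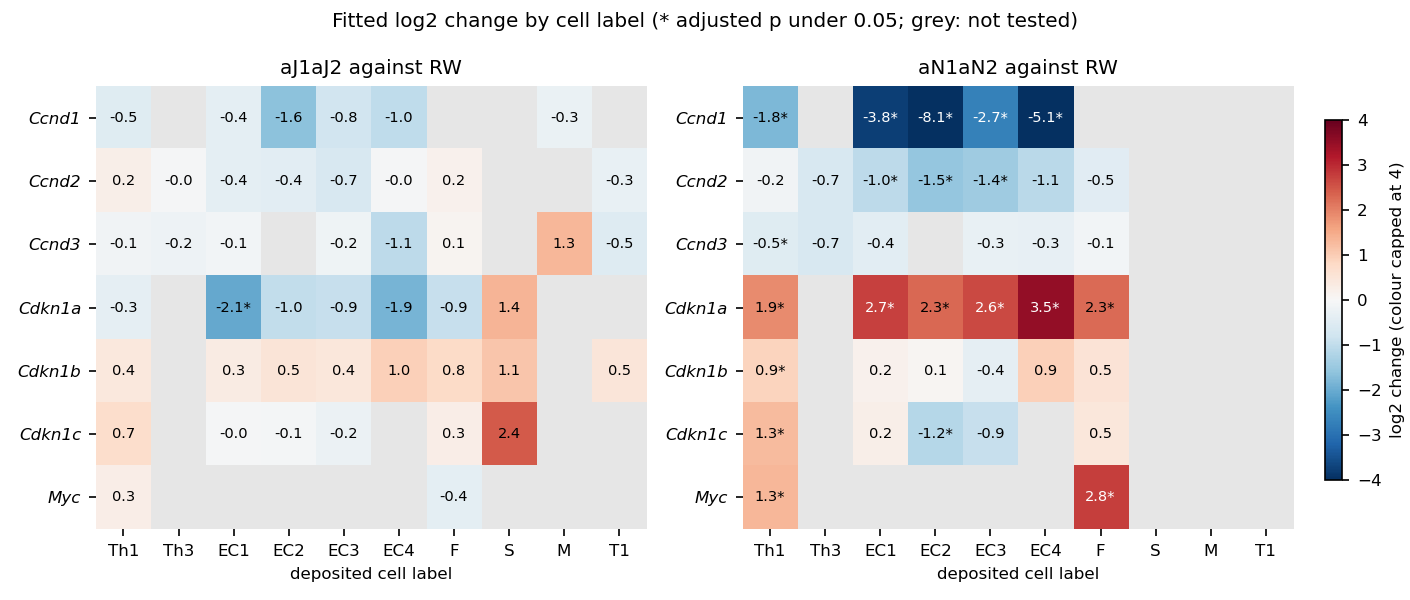
Fitted log2 change of each gene by label for aJ1aJ2 (left) and aN1aN2 (right) against RW, with asterisks at adjusted p under 0.05 and grey where a pair was not tested. The values -8.1 (EC2) and -5.1 (EC4) for Ccnd1 rest on 0 and 3 UMIs in aN1aN2; Cdkn1a is called upward in 6 labels on the right and downward in EC1 on the left.

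Ligand blockade left 1 call outside Th1, of 38 pairs tested in 11 labels (77 possible), beside 0.677% of all pairs. This was Cdkn1a in EC1, where 1.43% of genes were called. It was lower in every aJ1aJ2 pool (58.7, 30.0 and 39.7 CPM) than in every RW pool (66.3 to 259.4), 4.16-fold lower on average (log2 -2.06, SE 0.34, adjusted p = 0.00206), opposite in sign to aN1aN2. The call held in all 15 alternatives, with log2 changes from -2.47 to -1.61. With the series of sample numbers as a term the log2 change was -2.08 (adjusted p = 0.0062). Within series B, RW 1 and 2 held 184.9 and 259.4 CPM and aJ1aJ2 3 and 4 held 30.0 and 39.7. Within series A, RW 3 held 66.3 and aJ1aJ2 1 held 58.7, a smaller gap. The count of pairs called for ligand blockade outside Th1 grew when single pools were left out. Among the added pairs were Cdkn1a in EC4 without RW 3, and Ccnd1 and Ccnd2 in EC1 and Ccnd1 in EC4 without aJ1aJ2 1.

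The heat shock gene Hspa1a, which tissue dissociation induces, was also lower in aJ1aJ2 than in RW in EC1. Hspa1a was lower in aN1aN2 too, where Cdkn1a was higher. Hspa1a stood at 64.5, 31.6 and 56.3 CPM in RW, 6.52, 4.47 and 13.5 in aJ1aJ2 and 9.15, 5.36 and 6.37 in aN1aN2. The whole dissociation list summed to 1551 to 2025 CPM in RW, 1011 to 1614 in aJ1aJ2 and 1910 to 2124 in aN1aN2. Macrophage markers in EC1 summed to 93.9 to 240.8 CPM in RW (6 of 6 with UMIs), 28.3 to 47.3 in aJ1aJ2 (5 or 6) and 5.36 to 12.7 in aN1aN2 (1 to 4), and thyrocyte markers (8 of 8) to 734.1 to 1012, 795.5 to 1287 and 1346 to 1985 CPM. The endothelial markers (6 of 6) summed to 14756 to 16292 CPM in RW, 12965 to 16049 in aJ1aJ2 and 10815 to 11313 in aN1aN2. The part of these in the changes of Cdkn1a was not tested.

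In the other endothelial labels and in F Cdkn1a was also lower in aJ1aJ2 than in RW on average, without a call: log2 -0.98 in EC2 (adjusted p = 0.103), -0.91 in EC3 (0.606), -1.86 in EC4 (0.134) and -0.91 in F (0.419). In S, the label with Schwann cell markers, it was higher, at 247.3 and 567.9 CPM in RW 1 and 3 and 1058 and 991.0 in aJ1aJ2 3 and 4 (log2 1.37, SE 0.59, adjusted p = 0.415). In M, the macrophage label, it was also higher, at 32.7, 19.6 and 35.1 CPM in RW and 71.5, 41.5 and 48.8 in aJ1aJ2, without overlap, from 4 to 6 and 7 to 12 UMIs per pool. It did not pass the filter there and was not tested. Cdkn1c in S was at 24.7 and 109.9 CPM in RW and 193.3 and 403.7 in aJ1aJ2 (log2 2.45, adjusted p = 0.371). With the series of sample numbers as a term the log2 differences in S were 2.04 for Cdkn1a and 3.51 for Cdkn1c, and these rest on RW 1 alone. Ccnd3 in M was at 32.7, 52.3 and 52.6 CPM in RW and 142.9, 128.0 and 90.7 in aJ1aJ2, without overlap and not called (log2 1.34, SE 0.33, adjusted p = 1.00). Ccnd1 in EC2 was at 48.7 and 82.8 CPM in aJ1aJ2, below both RW pools and not called (log2 -1.64, SE 0.41, adjusted p = 0.0575).

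Receptor and ligand blockade were also set against each other directly. In Th1, aN1aN2 against aJ1aJ2 called 4 of 7 genes, beside 22.3% of all genes: Cdkn1a was higher in aN1aN2 (log2 2.25, SE 0.23, adjusted p = 7.32e-06) and so was Myc (1.07, SE 0.33, adjusted p = 0.0281), while Ccnd1 (-1.32, SE 0.18, adjusted p = 0.000118) and Ccnd2 (-0.38, SE 0.10, adjusted p = 0.0132) were lower. Myc was no longer called in 6 of 16 alternatives, including those without aJ1aJ2 1 (0.0692) or any 1 aN1aN2 pool (0.0606 to 0.0948), and the Ccnd2 call in 3, among them without aJ1aJ2 4 (0.0557) or aN1aN2 1 (0.0913). Cdkn1b (0.45, adjusted p = 0.0873), Cdkn1c (0.56, 0.166) and Ccnd3 (-0.35, 0.108) were not called.

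Outside Th1, 11 of 34 pairs in 9 labels were called (7 higher and 4 lower in aN1aN2), beside 9.77% of all pairs. Cdkn1a was higher in aN1aN2 in all 6 labels where it was tested: by log2 4.802 in EC1 (13.5% of genes called), 3.29 in EC2 (10.5%), 3.54 in EC3 (1.27%), 5.38 in EC4 (17.2%, adjusted p = 8.69e-11) and 3.17 in F (16%). The sixth was SM (4.05% of genes called), where aJ1aJ2 3 and 4 held 10.8 and 0 CPM and aN1aN2 428.6, 458.2 and 553.0; from 1 and 81 UMIs the ratio was 88.3, with a 95% counting interval of 15.4 to 3531 (adjusted p = 9.79e-09). That value rests on the minimum of 20 cells: aJ1aJ2 1, left out with 18 cells, held 14 UMIs (184.7 CPM on its library total), and with sums of at least 10 cells the log2 difference was 2.88 (adjusted p = 0.0166) in place of 6.10. The only RW pool of SM with 20 cells held 217.0 CPM. Ccnd1 was lower in aN1aN2 in EC1 (log2 -3.38), in EC4 (ratio of aJ1aJ2 to aN1aN2 19.5, interval 6.28 to 97.6) and in EC2 (at least 4.24-fold), and Cdkn1c in EC2 (log2 -1.09, adjusted p = 0.0182). The calls of Ccnd1 and Cdkn1c in EC2 were lost without single aN1aN2 pools (adjusted p up to 0.101 and 0.0756). Myc was higher in F (log2 3.15, SE 0.56), where it passed the filter only through the aN1aN2 pools.

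Whether the changes differed between labels was tested directly, as the change in a label minus the change in Th1, with a term for each pool, a test added after the changes in each label were known. For aN1aN2 against RW, 11 of 34 pairs in EC1 to EC4 and F differed, beside 5.34% of all pairs of gene and label (8.69% of genes in EC1, 3.46% in EC2, 3.15% in EC3, 5.54% in EC4 and 5.43% in F). Cdkn1a rose more than in Th1 in EC1 (difference 0.99, adjusted p = 0.0146) and EC4 (1.81, 3.69e-06). The ratio of its CPM in EC1 to that in Th1 of the same pool was 5.63, 9.37 and 3.33 in RW and 11.6, 8.48 and 16.9 in aN1aN2, so aN1aN2 2 lay below RW 2, while in EC4 the ratios did not overlap (1.42 to 8.57 and 11.2 to 18.9). Cdkn1c, which rose in Th1, differed in EC2 by -2.41 (1.86e-07) and in EC3 by -2.31 (0.0109). For aJ1aJ2, 1 of 34 pairs differed, Cdkn1a in EC1 (-1.51, adjusted p = 0.0323), beside 0.369% of genes in EC1 and 0.297% of all pairs. In F edgeR called 0 of the 7 as different from Th1 for aN1aN2, and 3 had an unadjusted p under 0.05 (Ccnd1, Cdkn1c and Myc), beside 17.2% of genes in F. No other tool was run for this difference.

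The partners of these genes were followed in Th1 through 6 lists, whose counts for aN1aN2 stand beside 34.4% of all genes called. Of 26 tested G1/S partners (kinases, pocket proteins, E2F factors, INK4 inhibitors and the Max network), 6 rose and 3 fell in aN1aN2 (34.6% called, median log2 change 0.04, all genes 0.02). Mxi1, a Max partner that opposes Myc, rose from 24.1 ± 4.10 to 96.6 ± 2.35 CPM (log2 1.96, adjusted p = 1.36e-07), Max itself from 120.7 ± 7.79 to 213.1 ± 8.10 (0.81, 1.86e-05) and the pocket protein gene Rbl2 from 23.5 ± 2.24 to 53.4 ± 8.34 (1.16, 5.89e-05). Cks1b, which helps SKP2 to degrade the product of Cdkn1b, fell from 31.0 ± 10.5 to 7.80 ± 1.81 CPM (-2.10, 6.32e-05). Mxi1 was the only called G1/S partner in aJ1aJ2 (0.99, adjusted p = 0.00784).

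Of 20 tested p53 targets 7 rose and 3 fell (50% called, median 0.31). Perp rose from 71.4 ± 15.7 to 297.8 ± 41.0 CPM (log2 2.02, adjusted p = 1.65e-07), Sesn2, a stress-induced inhibitor of mTORC1, from 16.4 ± 3.97 to 65.1 ± 12.1 (2.04, 1.55e-06) and Btg2 from 29.1 ± 8.24 to 73.6 ± 14.1 (1.32, 0.000269), while the apoptosis gene Bax fell from 101.1 ± 8.64 to 53.3 ± 8.63 (-0.92, 0.000168). Of 17 tested FoxO targets 13 rose and 4 fell (100% called, median 1.24). Pdk4, Klf15, Txnip and Foxo3 rose by log2 3.96, 3.53, 3.18 and 1.68 (adjusted p from 8.51e-08 to 6.01e-06), Txnip to 2944 ± 31.9 CPM from 326.8 ± 92.5. Klf15 also rose in aJ1aJ2 (1.80, adjusted p = 0.00933). The lists were drawn up with earlier results of these data known, so their counts are not independent evidence of a direction.

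Of 23 tested Myc targets 14 fell and 1 rose in aN1aN2 (65.2% called, median -0.65), while Myc itself rose. Nme1, a nucleoside diphosphate kinase, fell from 213.9 ± 16.8 to 53.9 ± 9.47 CPM (log2 -2.003, adjusted p = 4.87e-07), Odc1, the first enzyme of polyamine synthesis, from 108.5 ± 11 to 61.6 ± 2.67 (-0.83, 0.000187) and the chaperonin gene Hspe1 from 254.3 ± 26.4 to 158.4 ± 3.03 (-0.68, 0.000165). Npm1, a nucleolar chaperone, was the 1 that rose (357.5 ± 39.5 to 840.2 ± 19.0 CPM, 1.23, 7.76e-06). Of 9 tested genes of S to M phase, Tyms (-1.25, adjusted p = 0.0125) and Stmn1 (-1.21, 0.0181) fell and none rose (22.2% called); 16 others of the 25 did not pass the filter. Of 13 tested dissociation genes 3 rose and 1 fell (30.8% called, median 0.41), Zfp36 by 1.63 (0.000118) and Hspa1a by 0.58 (0.0045), and Jun fell by 0.91 (0.0258). In the direct comparison of aN1aN2 with aJ1aJ2 the same lists had 4 higher and 2 lower (G1/S), 6 and 1 (p53), 8 and 3 (FoxO), 1 and 10 (Myc targets), 2 and 0 (dissociation) and 0 and 0 (S to M phase), beside 1150 and 1224 of all genes (22.3%). For S to M phase 1 of the 9 had an unadjusted p under 0.05, and DESeq2 also called 0.

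In EC1, where these lists were read after the Th1 values were known, aN1aN2 raised 6 and lowered 2 of 18 p53 targets (all genes 827 and 837 of 9369, 17.8%). Ddit4, an inhibitor of mTORC1, rose from 40.7 ± 3.72 to 781.9 ± 81.4 CPM (log2 4.25, adjusted p = 3.55e-12), Sesn1 by 2.40 (4.78e-09), the death receptor gene Fas by 1.72 (5.3e-08) and Trp53inp1 by 1.81 (0.000256). Of 14 FoxO targets 5 rose and none fell, among them Txnip (1.96) and Pik3ip1 (2.94), and of 22 Myc targets none rose and 6 fell, among them Odc1 (-1.67) and Ldha (-0.71). Of 22 G1/S partners 2 rose, Mxd4 (1.25, adjusted p = 3.06e-07) and Mxi1 (1.68, 0.000207), and of 10 genes of S to M phase 2 rose, Stmn1 (0.97) and Mcm7 (1.11) (in Th1 Stmn1 fell). Of 15 dissociation genes 3 rose and 3 fell in aN1aN2: Nr4a1 (-4.11), Hspa1a (-2.84) and Hspa1b (-1.92) fell, and Jund rose by 0.85. In aJ1aJ2, where 51 of all genes rose and 83 fell (1.43%), 4 of 15 dissociation genes fell (Hspa1a by 2.59, Hspa1b by 2.25, Fos by 1.56 and Nr4a1 by 1.74), 2 of 14 FoxO targets rose (Pik3ip1 by 1.01 and Txnip by 0.54) and 1 of 22 Myc targets fell (Odc1, -1.05) in EC1. DESeq2 called 2 dissociation genes, 2 FoxO targets and 0 Myc targets there, where 5 Myc targets had an unadjusted p under 0.05 by edgeR.

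The genes most like each member were sought over 103 sums of at least 20 cells and 50000 UMIs from 15 labels, by Pearson's r of log2(CPM + 1) among 8877 genes. These sums share pools, labels and depth, and the values are descriptions. The levels of Cdkn1a were most like those of Lrrc8a (r = 0.878), Sult1a1 and Litaf. Ccnd1 was most like Zfp710 (0.774), Ccnd2 like the chaperone gene Calr (0.898), Ccnd3 like Banf1 (0.953), Cdkn1b like Tab2 (0.923) and Cdkn1c like the caveolar gene Cavin1 (0.874). Myc, with the fewest UMIs, had no gene above 0.585 (Pgm3).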

How the data were processed

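Single cells of 9 thyroid pools were counted with 10x Genomics 3′ v2 libraries, each on its own HiSeq4000 lane, per the labels' protocols. The authors deposited whole-number UMI counts per gene and cell, made with Cell Ranger on GRCm38, per the submitters' processing notes (version and annotation are not given in the sources used here), and a table of cell labels. In 2619 lines of that table the columns were shifted against the header, which was corrected. Symbols matched 52403 of 52636 gene identifiers, and the other 233 held 0.0293% of UMIs. Coordinates are from GENCODE and promoters from RefSeq.

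Counts were summed per pool and label for sums of at least 20 cells. The pools with such a sum entered 1 fit per label with a mean for each group present (9 pools in Th1, EC1, EC4 and F, 8 in EC3, 7 in EC2, 6 in SM and M, 5 in T1 and 4 in S, with no aN1aN2 pool in M, T1 or S) in edgeR 4.0.16 (R 4.3.3: TMM, filterByExpr, glmQLFit, glmQLFTest, Benjamini-Hochberg over all genes tested, called at adjusted p under 0.05), and a contrast was tested with at least 2 pools per group. The SE is the size of the log2 change divided by the square root of F. The computation was tested on simulated data. A group with no UMI has a floor of 3 counts, and 1 to 3 UMIs a ratio with an exact 95% interval; both allow for counting error alone. Shares of cells were compared with exact permutation tests (SciPy 1.17.1). Doublets were not called, and all deposited cells were used. Nothing says that the pools of a group came from separate experiments, so p-values measure the spread between these pools.

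The members and gene lists were chosen with earlier results of these data known. Named genes are all 7 members and, of 6 lists, up to 4 called genes with the smallest adjusted p in each comparison, members left out, plus the 3 genes most like each member. Alternatives were DESeq2 1.42.0, its size factors, library totals, no filter on low counts, sums of at least 10 cells, each pool left out, the sample number series, a replicate block, equal cell numbers, and Th1 joined with Th3. RW and aN1aN2 share the numbers 1 and 2 in their titles. Same-numbered pools did not deviate together (correlations of -0.04 in Th1, 0.0116 in EC1 and -0.0454 in EC4), so no pairing was used.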

Additional observations from a re-analysis of the deposited data

Results flagged for a closer look

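The change of each gene in EC1, EC2, EC3, EC4 and F was compared with its change in Th1 by an interaction term in edgeR's quasi-likelihood test, fitted to the sums of both labels with a term for each pool, so that the labels are compared within a pool. All values below are log2 differences, the change in the label minus the change in Th1, with Benjamini-Hochberg adjusted p-values over all genes. The test was added after the changes were seen.

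Under receptor blockade 5 of 12 pairs of a D cyclin and an endothelial label differed from Th1, each with the lower value in the endothelial label. Of all genes, 8.69% differed in EC1, 3.46% in EC2, 3.15% in EC3 and 5.54% in EC4, and 5.34% of all pairs with F included. Ccnd1 differed by -3.42 in EC4 (adjusted p = 4.05e-05) and by -8.91 in EC2 (0.00139), the latter fitted against 0 UMIs in aN1aN2 and so no measure of size. Ccnd2, which was not called in Th1, differed by -0.92 in EC1 (0.00992), -1.45 in EC2 (0.0302) and -1.31 in EC3 (0.00983). The other pairs were not called: Ccnd1 had -1.94 in EC1 (0.0741) and -0.89 in EC3 (0.478), Ccnd2 had -0.85 in EC4 (0.237), and Ccnd3 had -0.0062 in EC1, 0.32 in EC2, 0.21 in EC3 and 0.24 in EC4 (adjusted p from 0.807 to 1).

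The inhibitors did not move together across labels. Cdkn1a rose further than in Th1 in EC1 (0.99, adjusted p = 0.0146) and EC4 (1.81, 3.69e-06), though its ratios of EC1 to Th1 overlapped between the groups. Cdkn1b and Cdkn1c, which rose in Th1, differed by -0.79 (0.0199) and -1.15 (0.0254) in EC1. Cdkn1c differed by -2.41 in EC2 (1.86e-07) and -2.31 in EC3 (0.0109).

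Under ligand blockade Cdkn1a in EC1 differed by -1.51 from Th1 (adjusted p = 0.0323).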

How the results depend on the processing

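Receptor blockade against RW kept 4 to 6 of the 7 genes called in Th1 (6 in the analysis reported) and 12 to 17 called pairs outside it (14) over all alternatives. The counts for ligand blockade were small and moved. In Th1 the count of 0 became 1 with no filter on low counts and 0 to 2 with single pools left out (2 without aJ1aJ2 1). Outside Th1 the count of 1 became 2 with library totals, 3 of 74 pairs with no filter, 4 of 32 with series as a term (the added calls were Cdkn1a, Cdkn1b and Cdkn1c in S, RW 1 against aJ1aJ2 3 and 4), and 1 to 5 with single pools left out (5 without RW 3, 4 without aJ1aJ2 1, and 2 without RW 1, RW 2, aJ1aJ2 4 or aN1aN2 2). Of aN1aN2 against aJ1aJ2 in Th1, 4 calls became 2 with equal cells per pool and 2 to 4 with single pools left out (2 without aN1aN2 1). The shares of Th1 cells without overlap went from 5 to 3 for aN1aN2 and from 2 to 0 for aJ1aJ2 at 2000 UMIs per cell, and with single pools left out ran from 5 to 6 and from 2 to 4 (4 without aJ1aJ2 1). The log2 change of Myc in Th1 under ligand blockade turned from 0.27 to -0.22 with equal cells and ran from -0.032 (without RW 3) to 0.51 with single pools left out. The cause of these changes was not tested.

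With a replicate block (RW 1 and 2 with aN1aN2 1 and 2, the numbers their titles share), 6 of 7 genes were called in Th1 as without it, and the count outside Th1 was 15 pairs instead of 14; the same-numbered pools are not known to be paired. Library totals shifted the median of all genes by 0.108 in EC4 for aN1aN2 against RW (61.5% of calls higher, 52.9% with TMM) and by 0.177 for aN1aN2 against aJ1aJ2 (70.7% and 52.9%). The shift was 0.153 in SM (50.8% and 31.1%), -0.165 in Th3 for aN1aN2 against RW and -0.109 in T1 for aJ1aJ2. In EC1 the share of aJ1aJ2 calls that were higher was 49.0% and 38.1%. Depth limits Myc most, with 350 UMIs in all cells.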
